A study of Mus musculus with 29 samples.

Results

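Intermittent fasting was compared with ad libitum feeding in the hippocampus of obese mice over both diets of the study at once. The comparison used 15 of the 29 libraries analysed, 7 from fasted mice and 8 from mice fed ad libitum. It used all genes with a mean of at least 1 FPKM (fragments normalised to transcript length and to library size) over these 15 libraries, which were 12857 of 24346 genes. All mice, controls included, were male C57BL/6J made obese by 10 weeks of high-fat diet. They then spent 4 weeks on continued high-fat diet ad libitum (HFD, 4 hippocampal libraries), the same diet under alternate-day fasting (HFD-IF, 4), a return to control chow ad libitum (CC, 4) or that chow under intermittent fasting (CC-IF, 3). The age of the mice, the hours of fasting before dissection and the time of day were not stated in the labels. Samples of 1 group are named biological replicates in the design text, and the p-values rest on the spread among them. The study's title names succinate as a mechanism by which fasting may act on the brain.

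The hippocampus holds the pyramidal neurons of the CA fields, the granule neurons of the dentate gyrus, interneurons and glia, and it serves spatial and episodic memory. Fasting lowers blood glucose, raises ketone bodies and glucocorticoids, and in mice lowers body temperature and shifts activity. Several gene sets are known to follow such signals in many tissues: RNA-binding proteins induced by mild cold, clock genes, glucocorticoid targets, and chaperones of the cytosol and of the endoplasmic reticulum.

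The libraries differed in several ways, among them the listing of Rn45s and the level of Ttr. Rn45s, the 45S precursor of ribosomal RNA, was listed at 0 FPKM in 9 hippocampal libraries (4 fasted, 5 ad libitum) and in all 14 liver libraries, and lay between 18860 and 29309 FPKM in the other 6, which were HFD 0, HFD 2, HFD-IF 2, CC 2, CC-IF 0 and CC-IF 2 (numbers are the index in the column name). Whether the exact 0 is a failed FPKM estimate or an absence of these fragments is not given, so the term for Rn45s used below compares libraries by how that gene is listed. In these 6 libraries the median gene lay 0.03 to 0.09 below its mean over all libraries on the log2 scale, and in the other 9 it lay 0.03 to 0.05 above. Ttr, the transthyretin of choroid plexus epithelium, a tissue that adjoins the hippocampus, exceeded 100 FPKM in 6 libraries, at 1744 FPKM in HFD 0, 1372 in HFD 2, 1246 in HFD 3, 320 in HFD-IF 0, 1615 in CC 2 and 957 in CC-IF 2, and was at most 74.1 FPKM in the other 9. It thus exceeded 100 FPKM in 4 of the 8 ad libitum and 2 of the 7 fasted libraries. Excitatory neuron markers summed to 1338 to 1567 FPKM in fasted and 1262 to 1528 FPKM in ad libitum libraries, dentate granule cell markers to 124 to 171 and 121 to 173 FPKM, and hypothalamic markers to at most 4.70 FPKM in any library. Thalamus and habenula markers summed to 34.0 to 71.6 FPKM in fasted and 30.8 to 68.0 FPKM in ad libitum libraries. In bulk tissue, fewer cells of a type and less RNA per cell cannot be told apart.

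**Figure D1:**
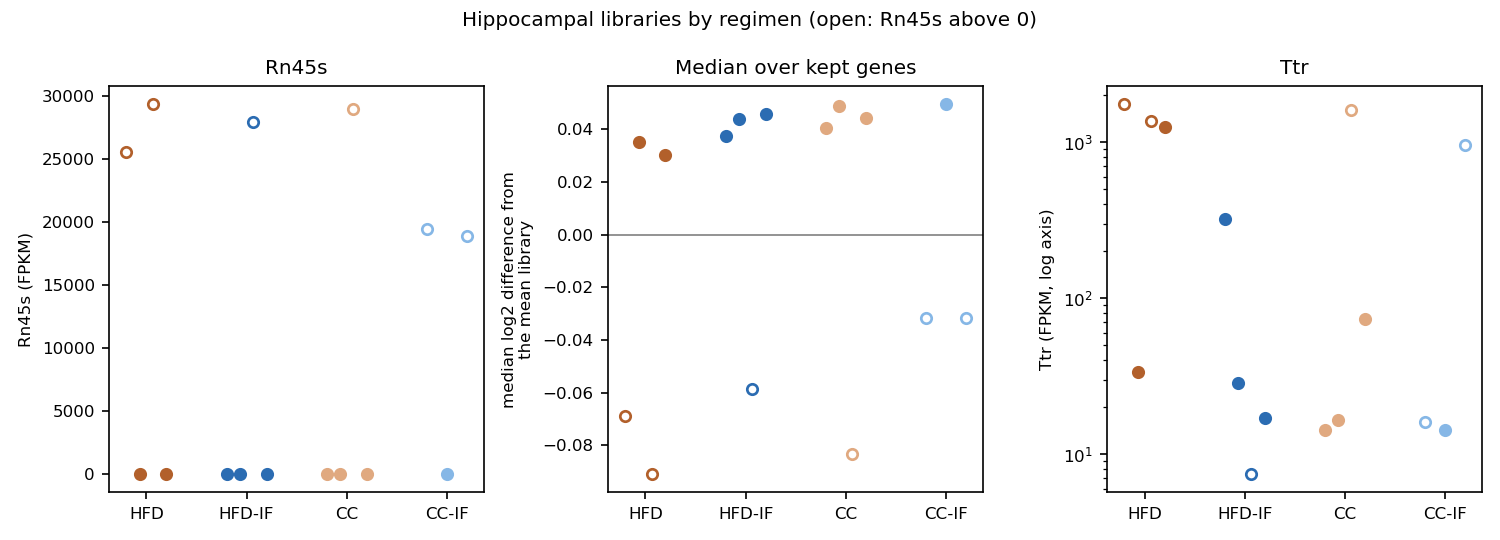
Each point is 1 hippocampal library, by regimen (HFD, HFD-IF, CC, CC-IF), with open points where Rn45s was above 0. The panels show Rn45s in FPKM, the median over kept genes of the log2 difference from the mean library, and Ttr in FPKM on a log axis; the 6 open points lie below 0 in the middle panel, and Ttr exceeds 100 FPKM in 6 libraries, 4 of them ad libitum.

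Few genes differed between fasted and ad libitum hippocampus at this number of libraries, and the differences were small. With fasting and diet as additive terms in limma, 13 genes rose (0.101% of those tested) and 5 fell (0.0389%) at an adjusted p under 0.05, which is 18 genes or 0.14%. An unadjusted p under 0.05 was reached by 1354 genes (10.5%; 6.35% higher and 4.18% lower). A log2 change above 0 was found in 57.3% of all genes and one below 0 in 42.7%, with a median of 0.02. The diet term of the same fit had 0 calls, with 391 genes at an unadjusted p under 0.05. With a term for Rn45s above 0 added, 81 genes rose (0.63%) and 29 fell (0.226%), 110 in all (0.856%), and all 18 calls of the additive fit were among them. The other 92 calls depend on that term. The Rn45s term itself passed in 4374 genes, 4071 of them lower where Rn45s was above 0. Standard errors of the 110 genes had a median of 0.04 with that term and 0.06 without it.

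The size of the called changes ranged from 0.21 to 0.80 on the log2(FPKM + 1) scale in the additive fit, and 99 of the 110 changes of the fit with the Rn45s term were under 0.5. Scaling each library to a common median turned the split of the additive fit from 13 higher and 5 lower to 5 higher and 7 lower, and that of the fit with the Rn45s term from 81 and 29 to 40 and 42. Leaving out any 1 of the 15 libraries left 0 to 9 calls in the additive fit, the most without HFD-IF 0, and 4 (without CC-IF 0) to 201 (without HFD 3) in the fit with the Rn45s term. Of the additive calls named below, Etnppl passed in 9 of these 15 additive fits, Cirbp in 5, and Plin4 and Tspan31 in 2 each. Cep131, Dbp, Fabp7, Fbrsl1, Nmb, Nr1d1, Ogn and Tubb2b each passed in 1, and Adam23, Asic2, Clec2l and Mthfd1l in 0. Among the 9 libraries with Rn45s at 0, limma called 0 genes and 1186 had an unadjusted p under 0.05; among the other 6 it called 0, with 1826. Without the 6 libraries with Ttr above 100 FPKM, the additive fit called 1 gene, Etnppl, and the fit with the Rn45s term called 0.

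Within a diet, HFD-IF against HFD gave 0 calls and 977 genes at an unadjusted p under 0.05, and CC-IF against CC gave 1 call (Dbp; 0.00778%) and 822. The difference between these contrasts, the interaction, passed in 0 genes, with 436 at an unadjusted p under 0.05. Of the 18 genes called in the additive fit, 10 had no overlap between the 7 fasted and the 8 ad libitum libraries, and of the 110 called with the Rn45s term 20 had none, where 31 of all 12857 genes (0.241%) had none, 24 with every fasted library above (0.187%) and 7 with every one below (0.0544%). The calls were chosen by p on these same libraries, which favours groups without overlap. A lack of overlap, here or for single genes below, is therefore no further evidence for them.

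**Figure D2:**
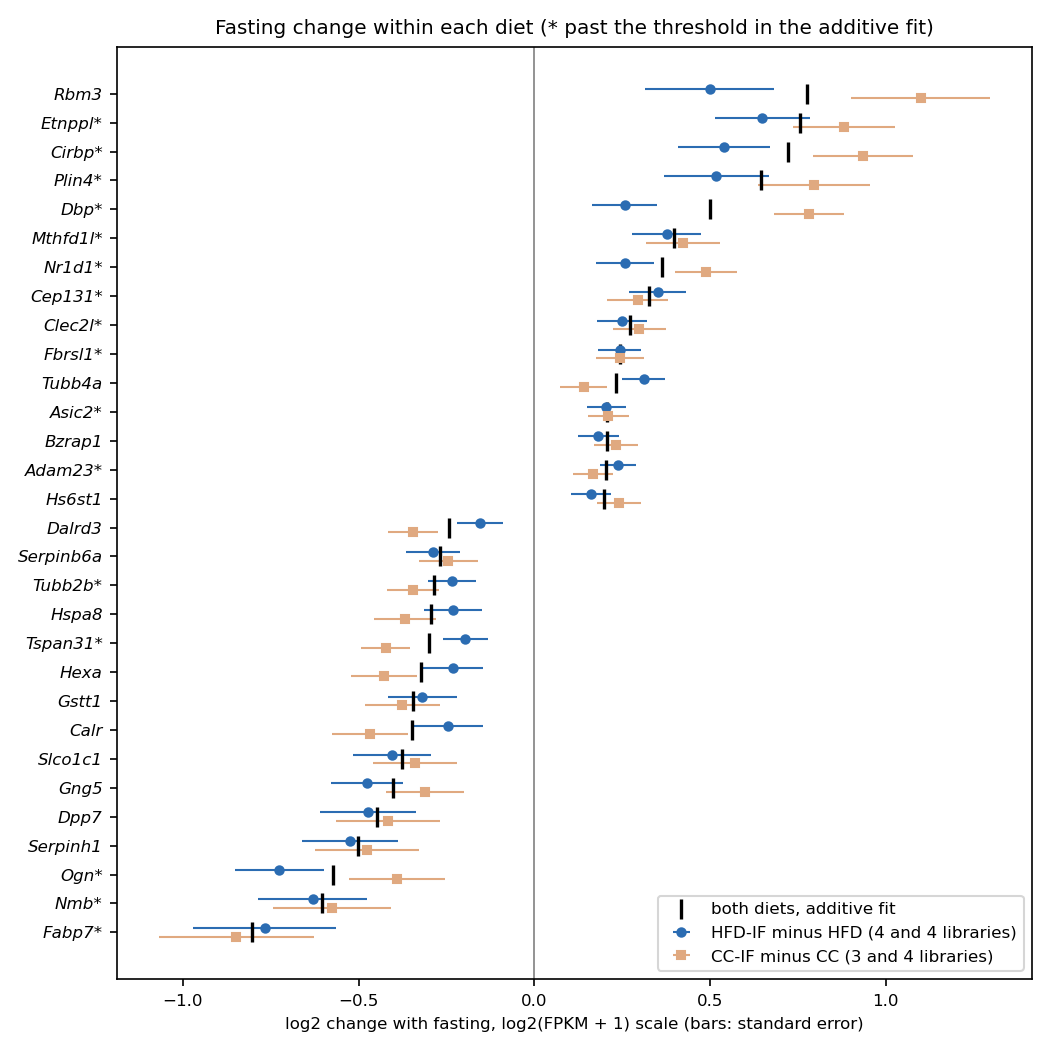
Points give the log2 change with fasting on high-fat diet (circles) and on chow (squares) with standard errors, and ticks the change pooled over both diets, for the 15 genes of smallest p in each direction. Rbm3, Dbp and Cirbp lie farther from 0 on chow than on high-fat diet, and every gene shown has the same sign on both diets, as the pooled fit that chose them favours.

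The cold-inducible RNA-binding proteins, Cirbp and Rbm3, were higher in the fasted mice. Cirbp, which binds RNA and is induced when body temperature falls (chr10:80165985-80172786, plus strand), lay between 29.6 and 56.3 FPKM (median 47.6) in the fasted libraries and between 24.1 and 33.3 FPKM (median 27.3) in the ad libitum libraries. Only HFD-IF 2 lay within the ad libitum range. It rose by 0.72 ± 0.11 on the log2 scale (SE; limma, adjusted p = 0.0269; adjusted p = 0.014 with the Rn45s term). Rbm3, the related cold-induced protein linked to synapse maintenance in cooled mice (chrX:8138975-8145880, minus strand), lay between 31.9 and 72.1 FPKM (median 62.8) in the fasted and between 26.2 and 45.2 FPKM (median 34.7) in the ad libitum libraries, with the same single library inside the range. Its change of 0.78 ± 0.15 had an adjusted p = 0.0611 in the additive fit and passed with the Rn45s term (limma, adjusted p = 0.0382). The 3 CC-IF libraries were among the highest for both genes: Rbm3 changed by 1.10 on chow and 0.50 on high-fat diet, and Cirbp by 0.94 and 0.54. The interaction had an unadjusted p of 0.0421 for Rbm3 and 0.0591 for Cirbp, and did not pass adjustment. Without the libraries of Ttr above 100 FPKM, the changes were 0.86 for Cirbp and 0.95 for Rbm3, and neither passed among the 9 that remained (limma, adjusted p = 0.0906 and 0.182). Cirbp was at 0.77 in the 9 libraries with Rn45s at 0 and 0.56 in the 6 with Rn45s above 0, and Rbm3 at 0.86 and 0.48.

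**Figure D3:**
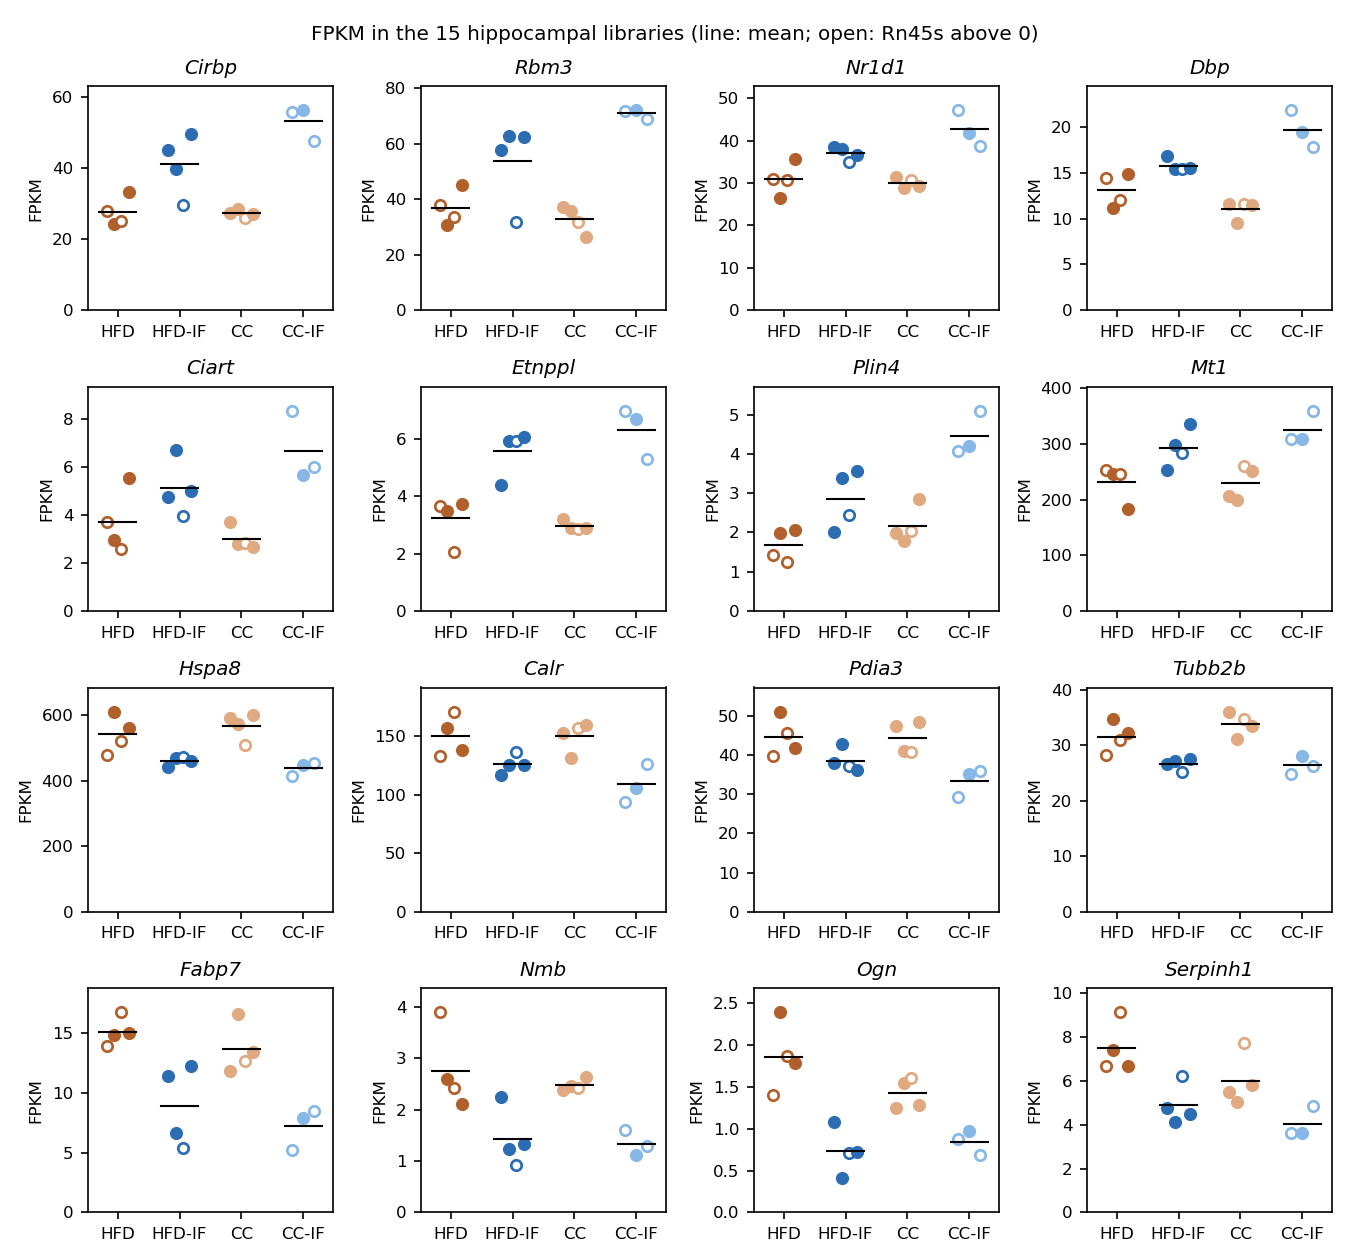
FPKM of 16 genes in each hippocampal library, by regimen, with a line at the mean of the regimen and open points where Rn45s was above 0; axes start at 0. The means of both fasted regimens are above those of both ad libitum regimens in the first 8 panels and below them in the last 8, and HFD-IF 2 lies among the ad libitum values for Cirbp and Rbm3.

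Heat shock chaperones, most of them cytosolic, mostly had changes below 0, and 1 of them passed. The list of 19 heat shock genes had 0 members past the threshold in the additive fit and 1 lower with the Rn45s term (0.226% of all genes). In the additive fit 6 members, all lower, had an unadjusted p under 0.05 (4.18% of all genes were lower at that p). A log2 change below 0 was found in 18 of 19 members and in 42.7% of all genes, with medians of -0.12 and 0.02. Hspa8, the constitutive Hsc70 chaperone (chr9:40800984-40810087, plus strand), was the member that passed: it lay between 415 and 473 FPKM (median 455) in the fasted and between 477 and 611 FPKM (median 566) in the ad libitum libraries, so that the groups did not overlap. Its change was -0.29 ± 0.06 (limma, adjusted p = 0.0913 in the additive fit and 0.0225 with the Rn45s term). It was at -0.37 in the libraries with Rn45s at 0 and -0.15 in the others. Among the members with the next smallest p, Ahsa1, an activator of Hsp90, was at -0.21 ± 0.05 and Hsph1, an Hsp110 nucleotide exchange factor, at -0.28 ± 0.09, and neither passed (limma, adjusted p = 0.155 and 0.251). Without the libraries of Ttr above 100 FPKM, Hspa8 was at -0.42, Ahsa1 at -0.31 and Hsph1 at -0.52 (limma, adjusted p = 0.0749, 0.0868 and 0.0749).

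Genes of the endoplasmic reticulum chaperone system also had mostly changes below 0, and 2 of them passed. Of 21 genes of the unfolded protein response, 0 passed in the additive fit, 2 fell with the Rn45s term, 10 had an unadjusted p under 0.05 in the additive fit, all of them lower, and 17 had a log2 change below 0 (median -0.18; median -0.28 on chow and -0.12 on high-fat diet). Over all genes these shares were 0.226% lower with the Rn45s term, 4.18% lower at an unadjusted p under 0.05, and 42.7% below 0. Calr, the calcium-binding lectin chaperone calreticulin (chr8:84841850-84846934, minus strand), lay between 93.7 and 136 FPKM (median 125) in the fasted and between 132 and 171 FPKM (median 155) in the ad libitum libraries. Pdia3, the disulfide isomerase that works with it (chr2:121413775-121438687, plus strand), lay between 29.4 and 42.7 FPKM (median 36.2) and between 39.8 and 51.1 FPKM (median 43.8). For both genes 6 of 7 fasted libraries were below every ad libitum library. Calr changed by -0.35 ± 0.08 and Pdia3 by -0.29 ± 0.07, and with the Rn45s term both passed narrowly (limma, adjusted p = 0.04997 and 0.0478, against 0.11 and 0.124 in the additive fit). Hsp90b1, the Hsp90 of this compartment, was at -0.34 ± 0.09 and did not pass in either fit (limma, adjusted p = 0.155 and 0.0621). Of the sensors and transcription factors on the list, Atf6 was at 0.01, Ern1 at -0.03, Ddit3 at 0.07 and Xbp1 at -0.12, and none passed. Xbp1 was at -0.31 on chow and 0.04 on high-fat diet. These genes were picked for their role after their values were seen. Without the libraries of Ttr above 100 FPKM, Calr and Pdia3 were at -0.45 and Hsp90b1 at -0.54 (limma, adjusted p = 0.13, 0.13 and 0.0878), while Atf6 turned to -0.17 and Ddit3 to -0.097, with Ern1 at -0.088, and none of these passed.

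Promoter windows are shown for 3 of these chaperones because members of both lists carry the classic response elements of these pathways. Windows run from 250 bases before to 50 after the annotated start and come from RefSeq on GRCm38.p6; 103 of the 133 genes the naming rule gave, and 85 of the 110 called, had one. The endoplasmic reticulum stress element, searched on both strands as CCAAT and CCACG with 9 bases of any kind between them, was found in 7 of the 18 unfolded protein response genes with a window (Hspa5, Hsp90b1, Calr, Canx, Pdia6, Creld2 and Dnajc3) and in 0.137% of all 27025 genes with one. The heat shock element, searched on both strands as GAA, TTC and GAA with 2 bases of any kind between neighbours, was found in 4 of 15 heat shock chaperone genes with a window (Hsph1, Hspd1, Hspe1 and Chordc1) and in 0.662% of all genes. Hspd1 and Hspe1, the mitochondrial chaperonins, are divergent neighbours whose windows overlap and hold the same elements, so that 1 shared region is counted for both. Of the chaperones of these lists called with the Rn45s term, only Calr is among the genes with a match, and Hspa8 and Pdia3 are not. Hsp90b1 and Hsph1, whose windows are also shown, passed in neither fit. Both lists are made of genes known for these pathways, so these shares do not bear on the fasting changes. A match describes the letters of the window only. Capitals mark the matched element, on either strand, in Calr (chr8:84846882-84847181, minus strand), Hsp90b1 (chr10:86705395-86705694, minus strand) and Hsph1 (chr5:149636266-149636565, minus strand).
Calr: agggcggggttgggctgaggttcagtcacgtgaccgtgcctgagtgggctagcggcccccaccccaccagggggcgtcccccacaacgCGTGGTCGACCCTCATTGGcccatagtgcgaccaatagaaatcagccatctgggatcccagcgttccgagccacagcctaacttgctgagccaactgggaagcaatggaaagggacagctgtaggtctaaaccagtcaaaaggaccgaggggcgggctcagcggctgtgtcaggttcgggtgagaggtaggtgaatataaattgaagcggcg
Hsp90b1: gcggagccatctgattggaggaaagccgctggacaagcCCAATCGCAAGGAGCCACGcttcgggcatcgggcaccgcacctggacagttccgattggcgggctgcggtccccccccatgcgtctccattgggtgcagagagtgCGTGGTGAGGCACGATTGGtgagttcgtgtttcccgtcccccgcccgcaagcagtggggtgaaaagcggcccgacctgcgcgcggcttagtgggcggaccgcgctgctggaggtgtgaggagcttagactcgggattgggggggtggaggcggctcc
Hsph1: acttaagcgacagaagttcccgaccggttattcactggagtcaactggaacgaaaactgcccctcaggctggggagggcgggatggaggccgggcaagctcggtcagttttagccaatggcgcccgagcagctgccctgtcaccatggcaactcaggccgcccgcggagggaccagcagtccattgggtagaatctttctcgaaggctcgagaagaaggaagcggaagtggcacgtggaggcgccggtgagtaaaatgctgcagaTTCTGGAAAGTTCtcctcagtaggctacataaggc

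Clock genes with a call were all higher in the fasted mice. Of 20 measured members, 2 rose in the additive fit and 3 with the Rn45s term (0.101% and 0.63% of all genes), 17 had a change above 0, and the median was 0.15, where 57.3% of all genes had a change above 0 and the median was 0.02. At an unadjusted p under 0.05 in limma, 9 members were higher and 2 lower (6.35% and 4.18% of all genes). Nr1d1, the nuclear receptor REV-ERB alpha that represses Arntl (chr11:98767932-98775333, minus strand), lay between 35.1 and 47.2 FPKM (median 38.4) in the fasted and between 26.3 and 35.8 FPKM (median 30.7) in the ad libitum libraries, and rose by 0.36 ± 0.07 (limma, adjusted p = 0.0483). Dbp, a clock output factor that binds D-boxes (chr7:45705088-45710203, plus strand), lay between 15.4 and 21.9 FPKM (median 16.8) and between 9.57 and 14.9 FPKM (median 11.6). Its groups did not overlap, and it rose by 0.50 ± 0.09 (limma, adjusted p = 0.0483). The change of Dbp was 0.78 on chow and 0.26 on high-fat diet, and the interaction had an unadjusted p of 0.00159 that did not pass adjustment over all genes. Nr1d2, the paralog of Nr1d1, rose by 0.23 with the Rn45s term (limma, adjusted p = 0.0419), and was at 0.22 ± 0.08 in the additive fit (adjusted p = 0.308).

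Other clock genes had values of the same sign without passing. Ciart, a repressor of the core activators (chr3:95878503-95882251, minus strand), lay between 3.95 and 8.34 FPKM (median 5.65) in the fasted and between 2.57 and 5.52 FPKM (median 2.90) in the ad libitum libraries. It was at 0.64 ± 0.14 and missed the threshold with the Rn45s term (limma, adjusted p = 0.114 and 0.052). Per1, a core repressor that glucocorticoids also induce (chr11:69095217-69109960, plus strand), was at 0.28 ± 0.07 (limma, adjusted p = 0.124 and 0.0536). The 3 members with a change below 0 were Nfil3 (-0.29), a repressor at the D-boxes that Dbp activates, Arntl (-0.22), the core activator that Nr1d1 represses, and Rorb (-0.13), and none of these passed. They are named because only these 3 had that sign, after their values were seen.

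The E-box CACGTG, the element bound by the core clock activators and its own reverse complement, was found in 5 of 18 clock genes with a promoter window (Per1, Cry1, Tef, Ciart and Bhlhe41) and in 8.09% of all genes with one. The windows of Ciart (chr3:95882179-95882478, minus strand), with 3 copies, and of Per1 (chr11:69098699-69098998, plus strand; 1 of its 2 windows) are shown with the E-boxes in capitals. The window of Dbp does not hold these letters. As the list is made of known clock genes, its share does not bear on the fasting changes.
Ciart: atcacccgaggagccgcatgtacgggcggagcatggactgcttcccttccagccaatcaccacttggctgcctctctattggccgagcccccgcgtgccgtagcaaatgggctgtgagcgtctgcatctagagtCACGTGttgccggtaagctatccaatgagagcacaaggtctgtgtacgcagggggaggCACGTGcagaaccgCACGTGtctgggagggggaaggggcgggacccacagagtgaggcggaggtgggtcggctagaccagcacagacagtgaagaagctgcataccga
Per1: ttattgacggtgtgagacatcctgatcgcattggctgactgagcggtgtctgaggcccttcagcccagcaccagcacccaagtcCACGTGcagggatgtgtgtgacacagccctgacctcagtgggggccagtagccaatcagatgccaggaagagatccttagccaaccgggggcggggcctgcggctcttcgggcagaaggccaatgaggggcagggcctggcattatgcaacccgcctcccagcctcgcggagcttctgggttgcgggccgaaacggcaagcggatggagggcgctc

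The list of 22 glucocorticoid response genes holds targets of these hormones and both receptors, Nr3c1 and Nr3c2, which are among its 3 members below 0. In it 1 gene rose in the additive fit and 2 with the Rn45s term (0.101% and 0.63% of all genes), 6 were higher and 0 lower at an unadjusted p under 0.05 (6.35% of all genes were higher), and 19 had a change above 0 (57.3% of all genes; median 0.15). Plin4, a lipid droplet coat protein (chr17:56100591-56109803, minus strand), lay between 2.01 and 5.096 FPKM (median 3.57) in the fasted and between 1.24 and 2.85 FPKM (median 1.97) in the ad libitum libraries, with HFD-IF 0 and HFD-IF 2 inside the ad libitum range. It rose by 0.65 ± 0.11 (limma, adjusted p = 0.0483). Mt1, the metal-binding metallothionein that fasting and glucocorticoids induce in liver (chr8:94179082-94180327, plus strand), lay between 253 and 360 FPKM (median 308) and between 183 and 260 FPKM (median 246). It was at 0.42 ± 0.09 and passed with the Rn45s term (limma, adjusted p = 0.0985 and 0.0382). Fkbp5, the cochaperone of the glucocorticoid receptor that is a common readout of these hormones, lay between 11.4 and 16.8 FPKM and between 11.2 and 15.3 FPKM and did not pass (0.11 ± 0.07; limma, adjusted p = 0.661). The 26 immediate early genes of neuronal activity had 0 members past the threshold in either fit of limma, and a median of 0.05. An unadjusted p under 0.05 was reached by 0 of them and by 10.5% of all genes. A change above 0 was found in 21 of the 26 and in 57.3% of all genes.

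**Figure D4:**
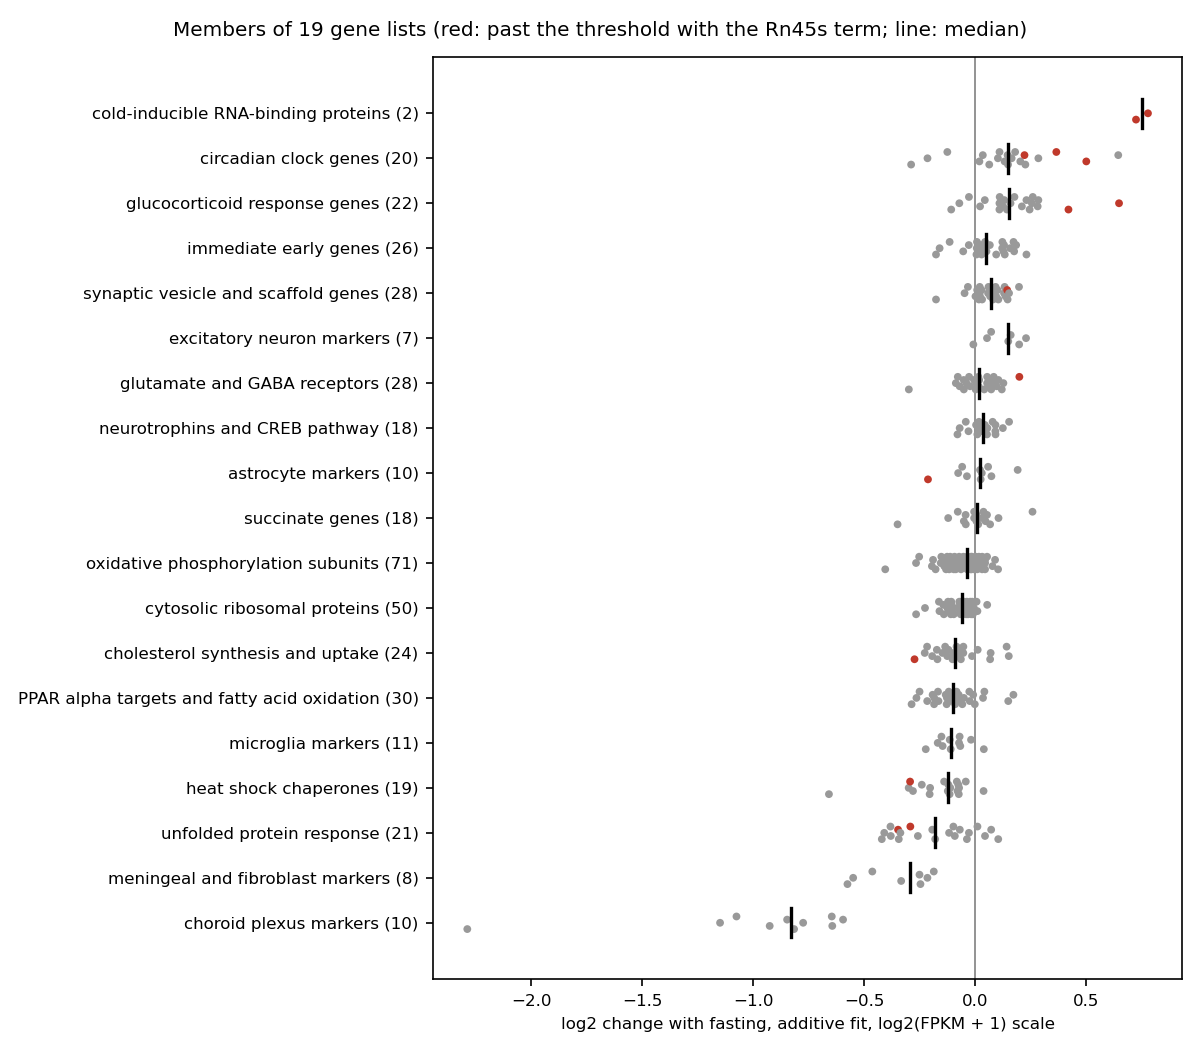
Each point is 1 kept member of a gene list, placed by its log2 change with fasting in the additive fit, with the number of kept members in brackets, red where it passed with the Rn45s term and a line at the median of the list. The medians of the chaperone lists lie at -0.12 and -0.18, those of the clock and glucocorticoid lists at 0.15, and those of meningeal and choroid plexus markers at -0.29 and -0.83 with no member past the threshold.

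Genes of astrocytes and radial glia were called in both directions. Etnppl, an astrocyte enzyme that breaks down phosphoethanolamine (chr3:130617448-130637521, plus strand), lay between 4.41 and 6.99 FPKM (median 5.95) in the fasted and between 2.06 and 3.75 FPKM (median 3.06) in the ad libitum libraries, without overlap. It rose by 0.76 ± 0.10 (limma, adjusted p = 0.0145), on both diets (0.65 and 0.88), and was the only gene called without the libraries of high Ttr (0.84; limma, adjusted p = 0.0207). Fabp7, the brain fatty acid binding protein of astrocytes and neural stem cells (chr10:57784881-57788450, plus strand), lay between 5.23 and 12.2 FPKM (median 7.87) and between 11.8 and 16.7 FPKM (median 14.3), with only HFD-IF 3 inside the ad libitum range. It fell by 0.80 on the log2 scale (SE 0.15; limma, adjusted p = 0.0483), by 0.77 on high-fat diet and 0.85 on chow. It was at -0.63 in the libraries with Rn45s at 0 and -1.09 in the others. The 10 astrocyte markers had 0 members past the threshold in the additive fit and 1 lower with the Rn45s term (0.226% of all genes), and a median of 0.02. That member was Aqp4, the water channel of astrocyte endfeet, at -0.20 (limma, adjusted p = 0.0419; -0.21 and adjusted p = 0.319 in the additive fit). Summed astrocyte markers ranged from 1236 to 1357 FPKM in the fasted and from 1148 to 1362 FPKM in the ad libitum libraries. Slco1c1, a thyroid hormone carrier of astrocytes and brain endothelium, fell with the Rn45s term (-0.37; limma, adjusted p = 0.0478).

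The higher calls of the additive fit included Adam23, Asic2 and Clec2l, which were named for their p and not as members of a list. Adam23, a synaptic membrane protein (chr1:63445891-63596276, plus strand), lay between 29.2 and 31.9 FPKM (median 30.6) in the fasted and between 25.2 and 28.2 FPKM (median 26.2) in the ad libitum libraries and rose by 0.21 ± 0.04 (limma, adjusted p = 0.0483). Asic2, an acid-sensing ion channel subunit (chr11:80880169-81968457, minus strand), rose by 0.21 ± 0.04, from 16.3 to 18.5 FPKM in the ad libitum to 18.97 to 22.1 FPKM in the fasted libraries (limma, adjusted p = 0.0485). Clec2l, a C-type lectin-like membrane protein (chr6:38663069-38680864, plus strand), rose by 0.27 ± 0.05 (limma, adjusted p = 0.0483). The groups did not overlap for any of these 3 genes. None of them passed in the additive fit when any 1 library was left out.

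Of the synaptic lists, 1 scaffold and 1 receptor gene were called, both with the Rn45s term only, where 0.63% of all genes rose. Among 28 synaptic vesicle and scaffold genes 1 rose with that term, Dlgap1 of the postsynaptic density (0.15; limma, adjusted p = 0.0403), and 25 had a change above 0 (median 0.07), where 57.3% of all genes did (median 0.02). Among 28 glutamate and GABA receptor genes 1 rose, Grin1, the obligatory NMDA receptor subunit (chr2:25291181-25319187, minus strand). It lay between 113 and 136 FPKM (median 128) in the fasted and between 103 and 115 FPKM (median 111) in the ad libitum libraries, a change of 0.20 ± 0.04 (limma, adjusted p = 0.11 and, with the Rn45s term, 0.0382). Of the 28 receptor genes, 18 had a change above 0 (median 0.02). The largest change among them was that of Gabra2, a GABA receptor subunit, at -0.30 ± 0.09. It did not pass (limma, adjusted p = 0.209 and, with the Rn45s term, 0.052). Without the libraries of high Ttr, Dlgap1 was at 0.07 and Grin1 at 0.20. The 7 excitatory neuron markers had 0 members past the threshold and a median of 0.15. In limma, 3 of them were higher and 0 lower at an unadjusted p under 0.05, where 6.35% of all genes were higher. Rbfox3, the neuronal splicing factor NeuN, had the smallest p among the 7, at 0.16 ± 0.04 (limma, adjusted p = 0.169). Summed markers of excitatory neurons differed less between the groups than among libraries of a group.

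Tubulin genes were called in both directions. Tubb2b, a beta-tubulin of developing neurons (chr13:34126748-34130466, minus strand), lay between 24.9 and 28.1 FPKM (median 26.6) in the fasted and between 28.3 and 36.1 FPKM (median 32.9) in the ad libitum libraries, without overlap, and fell by 0.29 on the log2 scale (SE 0.05; limma, adjusted p = 0.0483). Tubb4a, the beta-tubulin of mature neurons and oligodendrocytes, lay between 246 and 313 FPKM (median 277) and between 221 and 247 FPKM (median 234), and rose with the Rn45s term (0.23; limma, adjusted p = 0.0382). Tubulin paralogs are similar in sequence, and reads could be split between them. Nmb, the neuropeptide neuromedin B (chr7:80902227-80905076, minus strand), lay between 0.923 and 2.25 FPKM (median 1.29) and between 2.12 and 3.90 FPKM (median 2.45), and fell by 0.60 (SE 0.11; limma, adjusted p = 0.0483). The 16 other neuropeptide genes listed, which do not include Nmb, had 0 members past the threshold and 0 at an unadjusted p under 0.05. Bdnf, the neurotrophin most often tied to fasting, lay between 8.27 and 11.2 FPKM in the fasted and between 8.74 and 15.04 FPKM in the ad libitum libraries and did not pass (-0.08 ± 0.11; limma, adjusted p = 0.855). Without HFD 1, the highest library, its change was -0.0021. Of 18 neurotrophin and CREB pathway genes 0 passed, with 1 at an unadjusted p under 0.05 in limma. That p was reached by 10.5% of all genes. In the additive fit 0.14% of all genes were called, and 0.856% with the Rn45s term. At these shares, lists of this size would hold no call.

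Several genes that act on chromatin and RNA were higher; they were named for their p, and no list of such genes was examined. Fbrsl1, a relative of the Polycomb-associated protein AUTS2 (chr5:110361754-110448503, minus strand), lay between 16.1 and 18.8 FPKM (median 17.9) in the fasted and between 13.6 and 15.8 FPKM (median 14.9) in the ad libitum libraries, without overlap, and rose by 0.24 ± 0.04 (limma, adjusted p = 0.0483). With the Rn45s term, rises passed for Sin3a, the scaffold of a histone deacetylase complex (0.23; limma, adjusted p = 0.00971), Med12 of the Mediator complex (0.25; 0.0225), Bcl7a of the BAF remodelling complex (0.14; 0.0225), Srsf2, a splicing factor (0.23; 0.0239), and Tnrc6c, a partner of Argonaute in microRNA silencing (0.18; 0.0225). In the additive fit these 5 genes had adjusted p of 0.26, 0.16, 0.104, 0.124 and 0.124. Cep131, a centrosomal and ciliary protein (chr11:120064430-120086827, minus strand), rose by 0.33 ± 0.06 (limma, adjusted p = 0.0483). Hnrnpc, an abundant RNA-binding protein of the nucleus, fell with the Rn45s term (-0.27; limma, adjusted p = 0.0361).

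Among metabolic genes, Mthfd1l, the mitochondrial enzyme that makes formate from folate-bound carbon (chr10:3973118-4167081, plus strand), lay between 3.36 and 4.22 FPKM (median 3.91) in the fasted and between 2.03 and 3.13 FPKM (median 2.72) in the ad libitum libraries. The groups did not overlap, and it rose by 0.40 ± 0.07 (limma, adjusted p = 0.0483). Gsr, the glutathione reductase, rose with the Rn45s term as 1 of 18 genes of the NRF2 antioxidant response (0.27; limma, adjusted p = 0.0487), and Ppargc1b, a coactivator of mitochondrial genes, as 1 of 16 of mitochondrial biogenesis and dynamics (0.18; limma, adjusted p = 0.0484). Idi1, the isopentenyl diphosphate isomerase, fell with that term as 1 of 24 genes of cholesterol synthesis and uptake (-0.26; limma, adjusted p = 0.0414), a list with 19 of 24 changes below 0 and a median of -0.09. Over all genes, 0.63% rose and 0.226% fell with the Rn45s term, and 42.7% had a change below 0.

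Of 18 kept genes of succinate metabolism, 0 passed in either fit of limma, where 0.14% and 0.856% of all genes were called, so that a list of this size would hold no call at the share of all genes. An unadjusted p under 0.05 was reached by 2 of them, 1 higher and 1 lower (10.5% of all genes), 10 had a change above 0 (57.3%), and the median was 0.01. The 4 subunits of succinate dehydrogenase, which oxidises succinate in the citric acid cycle and the respiratory chain, were at 0.05 ± 0.05 (Sdha), -0.01 ± 0.06 (Sdhb), -0.12 ± 0.06 (Sdhc) and 0.00 ± 0.06 (Sdhd), with adjusted p of 0.522 and above in limma. Sdha lay between 92.0 and 109 FPKM in the fasted and between 88.5 and 108 FPKM in the ad libitum libraries. Sucnr1, the succinate receptor, was listed at 0 in 14 of 15 libraries and at 0.0579 FPKM in HFD-IF 2, below the level at which genes were kept. The members of smallest p were plasma membrane carriers of citrate and dicarboxylates. Slc13a5, which prefers citrate, lay between 1.01 and 1.49 FPKM in the fasted and between 0.629 and 0.982 FPKM in the ad libitum libraries, and Slc13a3, which carries succinate, between 1.63 and 3.10 FPKM and between 2.47 and 3.79 FPKM. Their changes of 0.26 ± 0.07 and -0.35 ± 0.08 did not pass (limma, adjusted p = 0.169 and 0.133).

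Of 30 PPAR alpha targets and genes of fatty acid oxidation, 0 passed in either fit, as the share of all genes called gives for a list of this size, and 26 had a change below 0 (42.7% of all genes; median -0.10), with Acot1, a thioesterase, at -0.27 ± 0.08 and Hadha, of mitochondrial beta oxidation, at -0.17 ± 0.05 (limma, adjusted p = 0.251 and 0.262). In limma at an unadjusted p under 0.05, 8 of the 30 were lower and 0 higher, where 4.18% of all genes were lower. The 7 genes of ketone body use and transport had 0 called, 0 at an unadjusted p under 0.05, and a median of 0.05. Subunits of oxidative phosphorylation (71) and cytosolic ribosomal proteins (50) had 0 called in limma, with 7 and 3 at an unadjusted p under 0.05, all lower, 52 and 47 changes below 0, and medians of -0.04 and -0.06, where 42.7% of all genes lay below 0. Autophagy and mitophagy genes (28) and sirtuin and NAD synthesis genes (15) had 0 called, 2 and 0 at an unadjusted p under 0.05, and medians of 0.00. That p was reached by 10.5% of all genes.

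Ogn, Serpinh1 and Itgb5 were lower, named for their p or as list members, and markers of tissue around the hippocampus also lay below 0. Ogn, the matrix proteoglycan osteoglycin, which meninges express (chr13:49608046-49624501, plus strand), lay between 0.414 and 1.08 FPKM (median 0.724) in the fasted and between 1.25 and 2.39 FPKM (median 1.58) in the ad libitum libraries, without overlap. It fell by 0.57 on the log2 scale (SE 0.10; limma, adjusted p = 0.0483). Serpinh1, the collagen chaperone Hsp47 (chr7:99345376-99353239, minus strand), lay between 3.605 and 6.24 FPKM (median 4.49) and between 5.03 and 9.14 FPKM (median 6.69) and fell with the Rn45s term (-0.52; limma, adjusted p = 0.014). Itgb5, an integrin subunit that binds vitronectin, was at -0.29 with that term (limma, adjusted p = 0.0387).

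All 8 kept meningeal and fibroblast markers were below 0, with a median of -0.29, and 0 passed, with 3 at an unadjusted p under 0.05 in limma. Over all genes, 42.7% were below 0 and 4.18% were lower at that p. Lum, the proteoglycan lumican, was at -0.58 ± 0.19 and Col1a2, a collagen chain, at -0.25 ± 0.10. The meningeal markers summed to 222 to 327 FPKM in the fasted and 214 to 594 FPKM in the ad libitum libraries. Their median was -0.67 on high-fat diet and 0.01 on chow, while Ogn was at -0.73 and -0.39 and Serpinh1 at -0.52 and -0.48. All 10 kept choroid plexus markers were below 0 as well, with a median of -0.83 (-1.47 on high-fat diet and -0.13 on chow). Of these 0 passed, with 3 at an unadjusted p under 0.05 in limma. They summed to 15.5 to 1006 FPKM (median 27.7) in the fasted and 23.7 to 1824 FPKM (median 700) in the ad libitum libraries. Without the libraries of high Ttr, Ogn was at -0.59 and Serpinh1 at -0.49 (limma, adjusted p = 0.226 and 0.167). The part of meningeal tissue in the other lower genes was not tested.

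Further lower calls with the Rn45s term were Hexa, Dpp7 and Cd74; no list of lysosomal genes was examined, and of the immune lists only antigen presentation held a call. Hexa, a lysosomal hexosaminidase subunit, was at -0.32 and Dpp7, a lysosomal dipeptidase, at -0.44 (limma, adjusted p = 0.0416 and 0.0479). Cd74, the invariant chain of class II antigen presentation, lay between 0.715 and 1.37 FPKM in the fasted and between 0.770 and 3.94 FPKM in the ad libitum libraries, and fell as 1 of 6 kept antigen presentation genes (-0.68; limma, adjusted p = 0.0485). Its change was -1.05 on high-fat diet and -0.20 on chow. With the Rn45s term 0.226% of all genes fell. Microglia markers had 0 of 11 called, 10 below 0 (42.7% of all genes) and a median of -0.11. In limma, 3 of them were lower at an unadjusted p under 0.05, where 4.18% of all genes were. Their sum was 116 to 143 FPKM in the fasted and 126 to 156 FPKM in the ad libitum libraries. Further lower genes were Tspan31, a tetraspanin (chr10:127067280-127070264, minus strand), which fell by 0.30 (SE 0.05; limma, adjusted p = 0.0483), and Gng5, a G protein gamma subunit, at -0.40 ± 0.08 (limma, adjusted p = 0.0513 and, with the Rn45s term, 0.0322).

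In liver, the same additive comparison over 6 fasted and 8 ad libitum libraries called 2326 of 11497 genes (20.2%). Most of the fasted liver libraries were CC-IF, while most of the fasted hippocampal libraries were HFD-IF. The part of this in the differences between the tissues was not tested. The fasting change differed between hippocampus and liver in 1434 of 9939 genes kept in both (14.4%). Of the 110 genes called with the Rn45s term, 83 were kept in liver; 20 of them were called in liver in the same direction, 7 in the opposite direction, and the difference between tissues passed for 30. Dbp and Mt1 were higher in both tissues and moved farther in liver: Dbp changed by 3.31 there and Mt1 by 2.54, differences of -2.81 and -2.12 (limma, adjusted p = 0.00759 and 0.000209). Calr and Pdia3 fell farther in liver (-1.77 and -1.23; differences 1.42 and 0.94; limma, adjusted p = 1.01e-05 and 9.66e-05), as did Idi1 (-3.03; difference 2.76; limma, adjusted p = 3.78e-06).

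For other genes a larger change in liver was not shown, or the tissues differed in sign. Rbm3 changed by 1.24 and Cirbp by 0.33 in liver, Etnppl by 1.02 and Plin4 by 1.21, and none of these differences between the tissues passed (limma, adjusted p = 0.13, 0.233, 0.443 and 0.257). Hspa8, Fabp7, Tspan31 and Ogn were at 0.37, 0.15, 0.28 and 0.21 in liver, and their hippocampal changes were lower by 0.67, 0.96, 0.58 and 0.78 (limma, adjusted p = 0.00927, 0.0289, 0.000411 and 0.0021). Acot1 rose by 2.56 in liver and lay below 0 in hippocampus (difference -2.82; limma, adjusted p = 1.52e-05). The libraries of the tissues were treated as independent, since the columns name no animal.

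**Figure D5:**
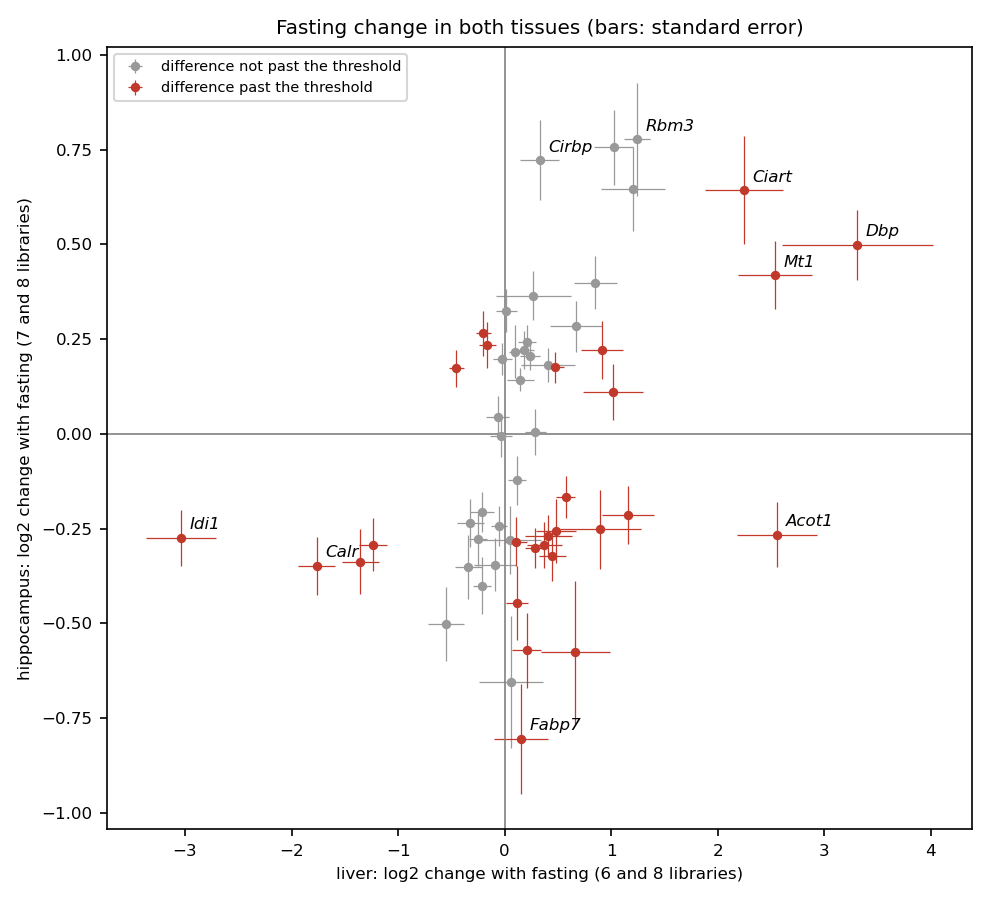
Each point is a gene named in the text, placed by its log2 change with fasting in liver and in hippocampus, with standard errors, red where the difference between the tissues passed the threshold. Dbp, Ciart and Mt1 lie far to the right and Idi1 and Calr far to the left, at hippocampal changes between -0.35 and 0.64.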

How the data were processed

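Polyadenylated RNA of liver and hippocampus was sequenced as strand-specific paired reads of 125 nt, per the labels' protocols. The authors deposited 1 table of FPKM for both tissues; which program and annotation gave the FPKM is not given in the sources used here. The submitters' processing notes name TopHat2 2.1.1, Bowtie2 2.3.5.1, Trimmomatic 0.39 and FastQC 0.11.9, and the build GRCm38 (mm10). Column names gave tissue and regimen; 0 columns were left without a group. Depth, estimated by reading low FPKM as whole fragments, was 12.4 to 38.8 M (mega) fragments per hippocampal library, but only 62.4% to 82.9% of low values came within 0.2 of a whole number of fragments (40% by chance). Between 17160 and 18057 genes were above 0. Pearson's r of log2 values across genes was 0.883 to 0.933 over 21 pairs of libraries of 1 regimen.

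Values were taken as log2(FPKM + 1), a scale that understates the change of low genes, for genes of mean FPKM of at least 1 over the 15 libraries. The fits were made with limma 3.58.1 (R 4.3.3; intensity trend; two-sided; Benjamini-Hochberg over all genes kept; threshold 0.05), with fasting and diet as terms, again with a term for Rn45s above 0, on the 4 group means for contrasts within a diet and the interaction, and over both tissues for the difference from liver. They were also run on simulated data with 200 genes changed. The simulated noise was independent between genes and libraries, so that run does not test the calls above. Errors after ± are standard errors. Tables and plots used matplotlib 3.10.9, numpy 2.4.6 and pandas 2.3.3 under Python 3.11.15. The comparison, the 48 gene lists and the naming rule were chosen with earlier results of these data known. Named are up to 15 genes of smallest p in each direction in either fit, list members past the threshold, the 3 list members of smallest unadjusted p under 0.05, and fixed genes (Rn45s, Sucnr1, Sdha to Sdhd, Bdnf, Fkbp5, Cirbp, Rbm3); the text describes part of these, and predicted genes were counted but not named. Coordinates of genes were taken by symbol from GENCODE M21 (GRCm38). Alternatives changed the pseudocount, filter, scaling, moderation, terms and libraries.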

Additional observations from a re-analysis of the deposited data

Results flagged for a closer look

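For 69 of the rule's named genes described in the text, a library far from the other 3 was sought by Dixon's ratio. Of 207 sets of 4 libraries of 1 regimen (HFD, HFD-IF or CC), 17 held such a library, where chance gives about 1 in 20. In HFD these were Bcl7a at 22.6 and Bdnf at 15.04 FPKM, each the highest, and Sdhb at 47.7 FPKM, also the highest, with Etnppl at 2.06 and Mt1 at 183 FPKM, each the lowest. In HFD-IF they were Dbp at 16.8 FPKM (highest) and Etnppl at 4.41, Gng5 at 14.9, Rbm3 at 31.9 and Sdhb at 36.8 FPKM (lowest), the latter pair both in HFD-IF 2. In CC they were Cd74 at 2.60, Cep131 at 6.604 and Isyna1 at 12.5 FPKM (highest in CC 2), Dpp7 at 6.41 FPKM (highest in CC 1), Dbp at 9.57 FPKM (lowest in CC 1), and Sin3a at 6.08 and Tnrc6c at 17.3 FPKM (lowest in CC 2). CC 2 is a library with Rn45s above 0 and Ttr above 100 FPKM, and HFD-IF 2 one with Rn45s above 0 and Ttr at 7.48 FPKM; the part of either in these values was not tested.

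The fasting change differed between hippocampus and liver for 27 of the 56 such genes kept in both tissues. Over all genes kept in both it differed in 1434 of 9939 (14.4%). Most of the 56 were named by their fasting p in these hippocampal libraries, which favours a difference. The hippocampal change lay below that in liver on the log2 scale for Acot1 (-2.82), Dbp (-2.81), Mt1 (-2.12), Ciart (-1.60), Aqp4 (-1.37), Lum (-1.24), Col1a2 (-1.15), Fabp7 (-0.96), Fkbp5 (-0.91), Ogn (-0.78), Hexa (-0.77), Hadha (-0.74), Isyna1 (-0.74), Nr1d2 (-0.69), Serpinb6a (-0.68), Hspa8 (-0.67), Tspan31 (-0.58), Dpp7 (-0.56), Itgb5 (-0.39) and Tnrc6c (-0.30). It lay above that in liver for Idi1 (2.76), Calr (1.42), Hsp90b1 (1.02), Pdia3 (0.94), Capn2 (0.63), Gsr (0.47) and Med12 (0.40). The interaction of fasting with diet passed for 0 of these genes in limma.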

How the results depend on the processing

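The additive fit's 18 calls became 0 with no filter on low values, 11 with a filter at a mean of 5 FPKM, 10 with quantile normalisation, 8 with 4 group means averaged over diets, 2 without the intensity trend, 89 with sample weights, 110 with a term for Rn45s and 3 with one for Ttr above 100 FPKM; pseudocounts of 0.1 and 0.5 gave 16 and 17, no diet term 13 and robust moderation 16. It called 0 in the libraries with Rn45s at 0, 0 in those with Rn45s above 0, and 1 in those with Ttr at most 100 FPKM. The 110 calls with the Rn45s term became 67 with no filter, 46 with a Ttr term (42 of them shared) and 0 in the libraries with Ttr at most 100 FPKM. Leaving out each library in turn gave 0 to 9 and 4 to 201 calls in these fits, 0 to 0 for diet and for the interaction, 0 to 3 for either contrast within a diet, and 1200 to 1371 for hippocampus against liver (1434 with all libraries). The additive fit called 0 without HFD-IF 1, HFD-IF 3, CC 1, CC 3, CC-IF 0 or CC-IF 1, and at least 1 without any other; the fit with the Rn45s term called 4 without CC-IF 0, 9 without CC 0 and 201 without HFD 3. With no filter, the interaction and HFD-IF against HFD called 2 genes each and CC-IF against CC 3; the latter gave 2 with a pseudocount of 0.1, 4 with the filter at 5, 3 with median scaling and 2 with quantile normalisation. The terms for Ttr, the splits by Rn45s and Ttr and median scaling with the Rn45s term were chosen after seeing the data. The cause of these differences was not tested, except that subsets hold fewer libraries.

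Genes near 0 changed sign. Sdhd was at -0.00934 with median scaling, -0.014 with quantile normalisation and -0.14 where Rn45s was above 0; Sdhb was at 0.00035 with the Rn45s term, 0.018 with sample weights and 0.037 where Rn45s was at 0, and Sdhc at 0.021 there. With median scaling and the Rn45s term Sdhb was at -0.020 and Sdhd at -0.013. Fkbp5 was at -0.024 where Ttr was at most 100 FPKM. Leaving out single libraries moved Sdhb between -0.021 and 0.040 (-0.014 and 0.038 with the Rn45s term) and Sdhd between -0.020 and 0.053 (-0.024 and 0.054). Atf6 was at -0.00485 with median scaling, -0.00269 with quantile normalisation, -0.024 with sample weights, -0.020 with a Ttr term and -0.17 where Ttr was at most 100 FPKM (-0.094 with the Rn45s term), and between -0.020 and 0.047 with single libraries left out (-0.012 and 0.047 with the Rn45s term). Where Ttr was at most 100 FPKM, Ddit3 was at -0.097 (-0.14 with the Rn45s term), and where Rn45s was above 0, Ern1 was at 0.023. Under the alternatives run, the sign held for the other 68 of the 75 genes in the text for which it was followed. Xbp1 and Gabra2 were not among these. No paired analysis was possible because the columns carry an index that counts from 0 and no numbered sample of the labels. Estimated depth was 12.4 to 38.8 M fragments, and 11 of the 18 and 99 of the 110 calls were of changes under 0.5 on the log2 scale.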

Other observations

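Further genes passed with the Rn45s term that belong to no list. Lower in the fasted mice were Serpinb6a, an intracellular protease inhibitor (-0.26; limma, adjusted p = 0.0225), Isyna1, which makes inositol (-0.27; 0.0299), Gstt1, a glutathione transferase (-0.35; 0.0382), Cars2, the mitochondrial cysteinyl-tRNA synthetase (-0.23; 0.0387), Dalrd3, a protein that takes part in tRNA methylation (-0.24; 0.0419), and Tmem35, a chaperone of nicotinic acetylcholine receptors (-0.23; 0.0225). Higher were Capn2, a calcium-dependent protease (0.18; 0.0225), Bzrap1, a binding protein of presynaptic active zones (0.21; 0.0267), and Hs6st1, a heparan sulfate sulfotransferase (0.20; 0.0338). Capn2 was at -0.45 in liver, and the difference of 0.63 between the tissues passed (limma, adjusted p = 8.65e-06).

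The remaining lists had 0 members past the threshold in either fit. Their medians lay at 0.00 for the citric acid cycle (25 genes), -0.04 for fatty acid synthesis (13), 0.03 for the ATF4 response (19), 0.05 for insulin and FOXO signalling (25), 0.03 for appetite and metabolic hormone receptors (8), 0.05 for neurogenesis and proliferation (12), and -0.02 for interferon response genes (8) and for cytokines (7). Marker medians were 0.06 for inhibitory neurons (9 genes), -0.04 for dentate granule cells (9), 0.01 for CA1 (6), 0.05 for CA2 and CA3 (9), 0.04 for myelin and oligodendrocytes (12), -0.06 for their precursors (7), -0.09 for endothelium (10), -0.11 for pericytes and smooth muscle (7), -0.05 for ependyma (6), 0.18 for thalamus (7), 0.07 for neocortex (6), -0.05 for striatum (4) and -0.31 for erythrocytes (2). In limma, 5 of the 19 ATF4 response genes, 4 of the 25 of insulin and FOXO signalling, and at most 2 members of any other list in this paragraph had an unadjusted p under 0.05. That p was reached by 10.5% of all genes.

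Of the genes with a GENCODE transcript, those that rose with the Rn45s term had a median longest transcript of 3874 nt and 51.5% GC (78 of 81 genes matched), those that fell 2346 nt and 49.97% GC (28 of 29), and all kept genes 3445 nt and 49.7% GC (12373 of 12857).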
